A study of Mus musculus with 6 samples.

Results

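The transcripts of 10 BMP and TGF-beta receptor genes were examined in endothelial cells isolated from mouse retinas: Acvrl1, Bmpr1a, Acvr1 and Tgfbr1 (type I receptors), Bmpr2, Acvr2a, Acvr2b and Tgfbr2 (type II receptors), and the co-receptors Eng and Tgfbr3. The genes were chosen by symbol. All 10 were among the 24421 genes of the count table, and all 10 passed the filter on low counts which left 14362 tested genes.

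Ligands of the BMP and TGF-beta family bring together type I and type II receptor kinases. The type II receptor phosphorylates the type I receptor, which then phosphorylates receptor SMADs that enter the nucleus with SMAD4. In endothelium, ALK1 (the product of Acvrl1) and the co-receptor endoglin (Eng) mediate the response to BMP9 and BMP10, and loss of either in humans causes hereditary haemorrhagic telangiectasia. The deletion studied here targets SMAD4, the shared mediator below these receptors. The receptor transcripts are compared here between the groups, as RNA levels and not as receptor protein or signalling.

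Both groups were pups of a mixed BL6/CD1 strain that carried the floxed Smad4 alleles (Smad4f/f), received tamoxifen at postnatal day 1 and had their retinas taken at postnatal day 7. The 3 Smad4-iECKO samples also carried Cdh5-CreERT2, a Cre recombinase that tamoxifen activates and the endothelial Cdh5 promoter drives, and the 3 Smad4f/f samples served as controls without it. The labels do not say whether a sample came from 1 pup or several, and any p-value therefore speaks only of how far these particular samples spread, which may be technical. Total counts ran from 12633018 to 23164952 in 5 libraries and were 2233360 in Smad4-iECKO replicate 2. That library stood apart in several receptors. Smad4 itself was at 109.5, 153 and 158 CPM (read counts relative to library size, scaled by the trimmed mean of M-values, TMM) in Smad4f/f and at 128, 93.9 and 134 CPM in Smad4-iECKO replicates 1, 2 and 3. The groups overlapped. The labels do not name the floxed exons, and a whole-gene count includes exons that remain, so this level does not check the genotype.

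All 22 endothelial markers were detected in every library, Cdh5 itself at 152 to 672 CPM. Their summed level lay between 2337 and 10193 CPM in Smad4f/f and between 3749 and 7465 CPM in Smad4-iECKO. Other cells of the retina were present as well. The 14 rod and cone markers summed to 5660 to 10787 CPM in Smad4f/f, against 5278 to 9241 CPM in Smad4-iECKO, and Opn1mw was at 0 in Smad4-iECKO replicate 2. The 13 pericyte markers summed to 644 to 2952 CPM and 1155 to 2140 CPM in the same order. The 9 fibroblast markers summed to 123 to 539 CPM and 349.6 to 840.4 CPM, with Dcn, Lum and Dpt at 0 in at least 1 library. The 14 Mueller glia and astrocyte markers summed to 1213 to 2740 CPM in Smad4f/f and 1574 to 2587 CPM in Smad4-iECKO. The 18 neuron and progenitor markers summed to 1061 to 1684 CPM and 1411 to 1614 CPM. The 14 microglia markers summed to 59.5 to 125 CPM and 113 to 163 CPM, with P2ry12 and C1qa at 0 in at least 1 library. The rod and cone sum exceeded the endothelial sum in Smad4f/f replicates 2 (10787 against 2337 CPM) and 3 and in Smad4-iECKO replicates 1 and 3, and was below it in the other libraries. In bulk samples of this kind, fewer cells of a type and less RNA per cell cannot be told apart.

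The largest transcript level per length was that of Eng, followed by Acvrl1 in the order of means. In CPM per kilobase of exon, averaged over the 6 libraries, Eng was at 81.8 ± 34.4 (SD, n = 6) and Acvrl1 at 30.4 ± 14.1. Tgfbr2, the TGF-beta type II receptor, followed at 26.7 ± 13.3, and Bmpr2, the type II receptor for BMPs, at 21.5 ± 8.78. The widely expressed type I receptors Tgfbr1 (ALK5) and Bmpr1a (ALK3) were at 17.5 ± 5.70 and 17.2 ± 6.77. The activin type II receptors Acvr2b and Acvr2a were at 16.3 ± 9.26 and 12.5 ± 2.73. Acvr1 (ALK2) at 6.79 ± 2.56 and Tgfbr3 (betaglycan) at 1.95 ± 0.839 were lowest.

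Eng exceeded Acvrl1 in 6 of 6 libraries, by 1.44 ± 0.37 on the log2 scale of CPM per kilobase (mean and SD of the difference within a library). Acvrl1 exceeded Tgfbr2 in 5 of 6 (by 0.24 ± 0.21), Acvr2a exceeded Acvr1 in 6 of 6 and Acvr1 exceeded Tgfbr3 in 6 of 6, each by more than the SD of the difference. In Smad4f/f alone Acvrl1 and Tgfbr2 did not differ beyond their spread (0.23 ± 0.28). The neighbouring pairs from Tgfbr2 down to Acvr2a did not differ beyond their spread. Ranks in this middle stretch depended on the exon length used: with the longest transcript instead of all exons, Bmpr2 (12899 against 17983 bases) stood at 30.0 and above Tgfbr2 at 27.0, and Acvr2b at 20.2 stood above Tgfbr1 and Bmpr1a. Acvrl1 and Bmpr2, which were then neighbours, did not differ beyond their spread, and neither did Acvr2a and Acvr1. Without Smad4-iECKO replicate 2, on all exons, Bmpr2 at 24.7 ± 4.29 stood just above Tgfbr2 at 24.6 ± 13.7, and Acvr2b was at 12.8 ± 3.84 and below Acvr2a (n = 5). The log2 difference of Acvrl1 to Bmpr2 was then 0.022 ± 0.75, with Acvrl1 higher in 2 of the 5 libraries.

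None of the 10 receptors differed between Smad4-iECKO and Smad4f/f beyond the spread between replicates. By edgeR's quasi-likelihood test 0 of 10 had a Benjamini-Hochberg adjusted p under 0.05, as had 0% of all tested genes, and 0 of 10 had an unadjusted p under 0.05, against 1.31% of all tested genes. DESeq2 called 0 of 10, against 0.0766% of genes, with 0 of 10 at an unadjusted p under 0.05, against 2.12%. Limma-voom with sample quality weights called 0 of 10, against 0.0557%. The CPM of the groups overlapped in 10 of 10 receptors, while 5.31% of tested genes had groups without overlap, 2.49% higher and 2.83% lower in Smad4-iECKO. Log2 fold changes were above 0 for 4 receptors and below 0 for 6 (median -0.18), against 48.2% and 51.8% of all genes (median -0.017). Every adjusted p was 1.00 by edgeR, and the 95% interval of every log2 fold change included 0.

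**Figure D1:**
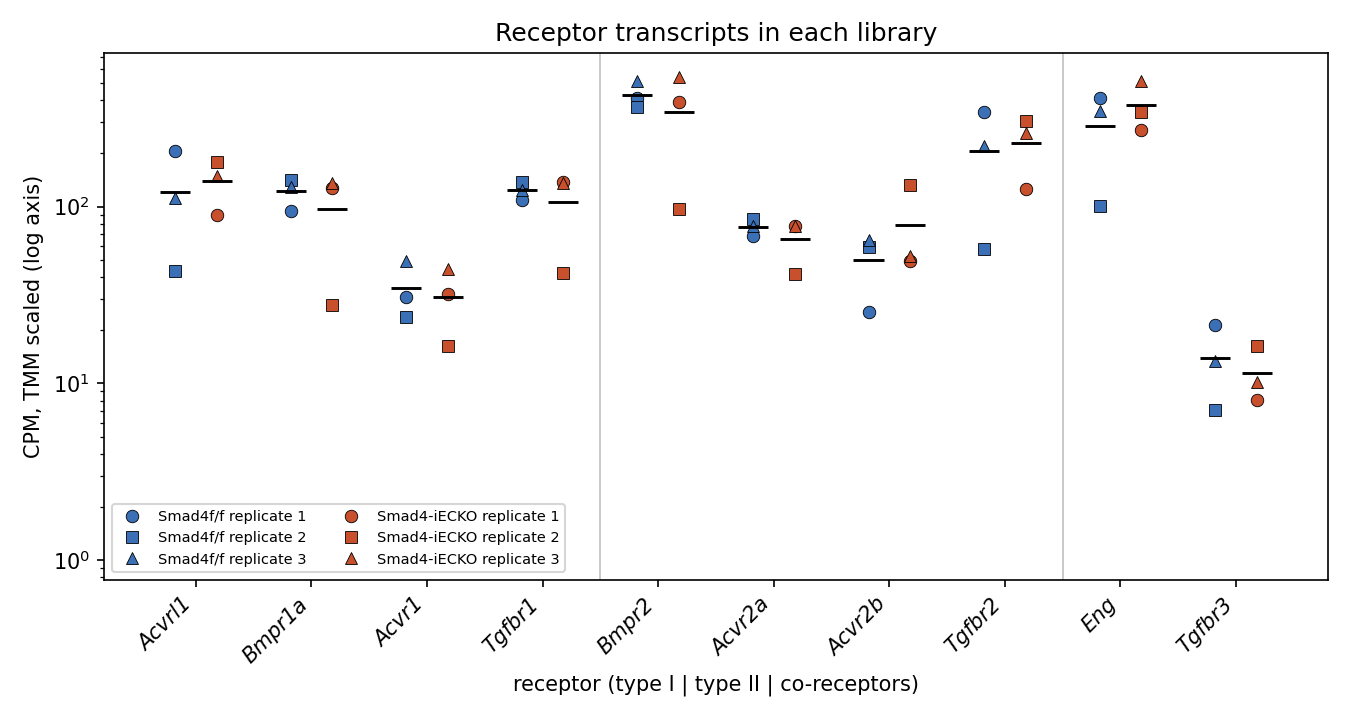
CPM of each receptor (log axis, TMM scaled) in the 6 libraries, with Smad4f/f in blue, Smad4-iECKO in red, a symbol for each replicate number and a bar at the group mean. The groups overlap in all 10 receptors, and Smad4-iECKO replicate 2 (red square) lies below the other 5 libraries for Bmpr2, Bmpr1a, Tgfbr1, Acvr2a and Acvr1 and above them for Acvr2b.

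Among type I receptors, Acvrl1 was at 207, 43.4 and 111 CPM in Smad4f/f replicates 1, 2 and 3 and at 89.5, 179 and 149 CPM in Smad4-iECKO replicates 1, 2 and 3. The highest and the lowest library were both Smad4f/f, and all Smad4-iECKO values lay between them. The log2 fold change was 0.21 with a standard error of 0.52, and its 95% interval ran from 0.509-fold to 2.62-fold. Its sign rested on single libraries: without Smad4f/f replicate 2 it was -0.20, and without Smad4-iECKO replicate 2 it was -0.036.

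Bmpr1a, a type I receptor for BMP2 and BMP4, was at 94.9, 142 and 129 CPM in Smad4f/f and at 127, 27.9 and 136 CPM in Smad4-iECKO. Tgfbr1, the type I receptor for TGF-beta, was at 109, 138 and 124 CPM in Smad4f/f and at 139, 42.3 and 136 CPM in Smad4-iECKO. Both were even across 5 libraries and low in Smad4-iECKO replicate 2. Their log2 fold changes were -0.32 (standard error 0.51) and -0.22 (standard error 0.43). Without Smad4-iECKO replicate 2 they were 0.079 and 0.12. Acvr1, whose product binds BMP6 and BMP7 among others, was at 30.8, 23.9 and 49.1 CPM in Smad4f/f, against 32.1, 16.3 and 44.6 CPM in Smad4-iECKO, a log2 fold change of -0.14 (standard error 0.43). It was 0.13 without Smad4-iECKO replicate 2 and 0.19 without Smad4f/f replicate 3.

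Among type II receptors, Bmpr2 showed the same single low library. It was at 411, 368 and 513 CPM in Smad4f/f and at 392, 97.1 and 541 CPM in Smad4-iECKO. The low value came from 209 reads, whose exact Poisson interval of 84.4 to 111 CPM lies below every other library and covers counting error only. The log2 fold change was -0.32 with a standard error of 0.54, and 0.093 with a standard error of 0.27 without that library.

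Acvr2a, a type II receptor for activins and BMPs, was at 68.3, 85.02 and 77.4 CPM in Smad4f/f, against 77.6, 41.4 and 77.6 CPM in Smad4-iECKO. Again 5 libraries lay close together. Its log2 fold change was -0.22 (standard error 0.32) with all libraries and -0.014 without Smad4-iECKO replicate 2.

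The related Acvr2b went the other way in that library. It was at 25.3, 59.4 and 64.3 CPM in Smad4f/f and at 49.4, 133 and 52.8 CPM in Smad4-iECKO. The log2 fold change of 0.64 (standard error 0.49) had the largest size of the 10. Without Smad4-iECKO replicate 2 it was 0.014.

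Tgfbr2 followed Acvrl1. It was at 344, 57.9 and 219.9 CPM in Smad4f/f and at 126, 305 and 259.7 CPM in Smad4-iECKO. The log2 fold change was 0.15 (standard error 0.59), -0.30 without Smad4f/f replicate 2 and -0.12 without Smad4-iECKO replicate 2.

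The co-receptor Eng, which presents BMP9 to ALK1, was at 409, 101 and 348 CPM in Smad4f/f and at 273, 342 and 515 CPM in Smad4-iECKO. Its highest library was Smad4-iECKO replicate 3 and its lowest Smad4f/f replicate 2. The log2 fold change was 0.40 (standard error 0.50) and its 95% interval ran from 0.597-fold to 2.91-fold. Without Smad4f/f replicate 2 it was -0.011, and without Smad4-iECKO replicate 2 it was 0.44. Tgfbr3, which presents TGF-beta 2 to its receptors, was the scarcest member, at 21.5, 7.08 and 13.4 CPM in Smad4f/f, against 8.05, 16.3 and 10.1 CPM in Smad4-iECKO. Its log2 fold change was -0.31 (standard error 0.51), with 0.13 without Smad4f/f replicate 1 and -0.64 without Smad4-iECKO replicate 2.

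**Figure D2:**
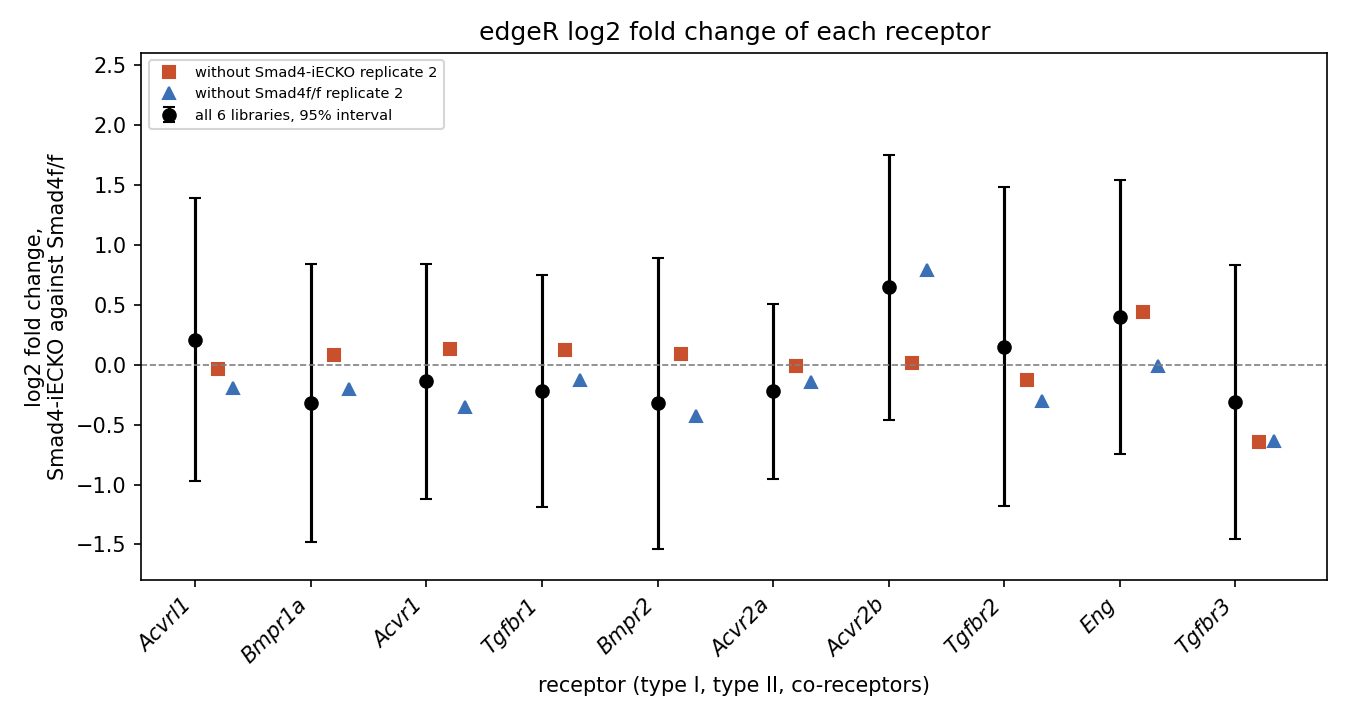
edgeR log2 fold change of each receptor, Smad4-iECKO against Smad4f/f, with its 95% interval (black, all 6 libraries), and the value without Smad4-iECKO replicate 2 (red square) or without Smad4f/f replicate 2 (blue triangle). Every interval includes 0, and without Smad4-iECKO replicate 2 the values of Acvrl1, Bmpr1a, Acvr1, Tgfbr1, Bmpr2, Acvr2a and Acvr2b lie between -0.036 and 0.13.

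Sample titles carry the number 38 in their prefix (4 libraries, 2 per group) or 40 (Smad4f/f replicate 2 and Smad4-iECKO replicate 2), and the labels do not say what the prefix stands for. In the 4 libraries with prefix 38, edgeR called 0 of 10 receptors, and 0% of all genes. Acvrl1 was then at a log2 fold change of -0.43, Tgfbr2 at -0.57, Eng at 0.041 and Bmpr2 at 0.0012. Tgfbr3, at -0.96, had an unadjusted p of 0.0451 and an adjusted p of 0.999 (edgeR), as 1 receptor of 10, against 4.13% of genes with an unadjusted p under 0.05 in these libraries. The pair with prefix 40 gave log2 ratios of Smad4-iECKO to Smad4f/f of 2.05 for Acvrl1, 2.40 for Tgfbr2 and 1.76 for Eng, and of -1.92 for Bmpr2 and -2.34 for Bmpr1a, with 1 library per group and no test. As log2 CPM around its mean over 6 libraries, the endothelial list stood at -1.28 for Smad4f/f replicate 2 and 0.31 for Smad4-iECKO replicate 2. Its part in the prefix 40 ratios was not tested.

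The receptors fell into patterns across libraries that cut across the genotype. Acvrl1, Eng, Tgfbr2 and Tgfbr3 were lowest or next to lowest in Smad4f/f replicate 2 and Smad4-iECKO replicate 1, where the endothelial and pericyte lists were low too. Taken as log2 CPM around the mean of the 6 libraries, the root mean square difference from the endothelial list was 0.241 for Acvrl1, 0.286 for Tgfbr2, 0.295 for Tgfbr3 and 0.427 for Eng. From the photoreceptor list these 4 differed by 0.851 to 1.14. The pericyte list gave 0.137, 0.300, 0.326 and 0.424 in the same order, and the fibroblast list 0.267, 0.382, 0.526 and 0.420. Acvrl1 was thus closest to the pericyte list and Eng, by a narrow margin, to the fibroblast list, and the profile does not separate these sources. Acvr2a, Tgfbr1 and Bmpr1a lay nearer the photoreceptor list (0.181, 0.389 and 0.587) than the endothelial list (0.944, 1.11 and 1.29). Bmpr2 was also nearer the photoreceptor (0.666) than the endothelial list (1.16), with the Mueller glia and astrocyte list closest (0.661). The same list was closest to Acvr1 (0.384), and the list of neurons and progenitors was closest to Acvr2b (0.508). These are descriptions over 6 libraries that share their depth and composition.

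**Figure D3:**
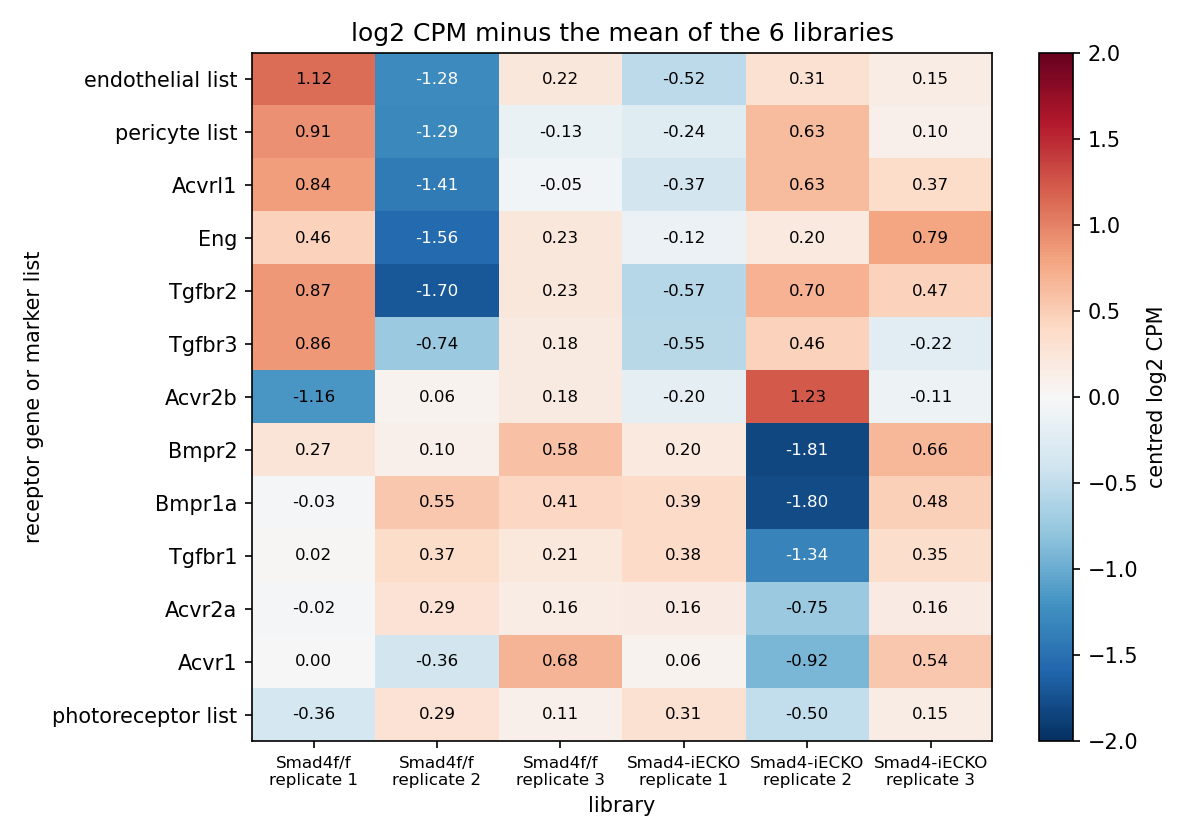
log2 CPM of each receptor and the mean of 3 marker lists, with the mean over the 6 libraries subtracted. Acvrl1, Eng, Tgfbr2 and Tgfbr3 share the negative value of the endothelial and pericyte lists in Smad4f/f replicate 2, and Bmpr2, Bmpr1a, Tgfbr1, Acvr2a and Acvr1 are between -0.75 and -1.81 in Smad4-iECKO replicate 2.

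The 3 tested genes nearest to Acvrl1 by this measure were Prkch, a protein kinase C gene (root mean square difference 0.0703), Fkbp9, which encodes a peptidyl-prolyl isomerase (0.104), and the tetraspanin gene Cd82 (0.104). Prkch was at 122, 26.3 and 60.2 CPM in Smad4f/f, against 50.8, 94.4 and 84.6 CPM in Smad4-iECKO. Nearest to Eng were Nid1, which encodes the basement membrane protein nidogen-1 (0.142), 4930578C19Rik (0.151) and Helz2 (0.157). Among all tested genes the endothelial Cdh5 ranked at place 59 for Acvrl1 and the pericyte gene Pdgfrb at place 62, with the endothelial Pecam1 at place 273. For Eng these places were 20, 446 and 307.

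In Smad4-iECKO replicate 2 the receptors picked out as low there also lay below most genes of like length, which that choice partly fixes. Against the mean log2 CPM of the other 5 libraries, Bmpr2 was at -2.18, Bmpr1a at -2.16, Tgfbr1 at -1.60, Acvr1 at -1.10 and Acvr2a at -0.90. Among tested genes split into 4 equal classes by exon length, these values lay at percentiles 6.37, 10.4, 15.03, 22.4 and 27.0 of their own class. Genes of 6953 bases or more, the class of Bmpr2, had a median of -0.21 (quartiles -0.92 and 0.51). Genes of 4546 to 6952 bases, the class of Bmpr1a, Tgfbr1, Acvr1 and Acvr2a, had a median of -0.082 (quartiles -0.99 and 0.64). Tgfbr2, in the class of Bmpr2, was at 0.84. Acvr2b, in the class of 2879 to 4545 bases, was at 1.47. The part of library depth or RNA quality in these values was not tested.

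Promoter sequence is shown for Eng and Tgfbr2, whose profiles lay nearer the endothelial, pericyte and fibroblast lists than the photoreceptor list, and for Tgfbr1 and Acvr2a, whose profiles did not. RefSeq promoters (GRCm38.p6) were at hand for 8 of the 10 receptors, and not for Acvrl1 and Tgfbr3. The 250 bases before the annotated start are printed 5′ to 3′ for 4 of them whose window holds no base of the GENCODE gene: Eng (chr2:32646345-32646594, plus strand), Tgfbr2 (chr9:116175364-116175613, minus strand), Tgfbr1 (chr4:47352972-47353221, plus strand, the upstream one of its 2 starts) and Acvr2a (chr2:48813859-48814108, plus strand). Capitals mark GGAAG or its reverse complement CTTCC, a core of the motif bound by ETS factors, a family to which ERG and FLI1 of endothelium belong.
Eng: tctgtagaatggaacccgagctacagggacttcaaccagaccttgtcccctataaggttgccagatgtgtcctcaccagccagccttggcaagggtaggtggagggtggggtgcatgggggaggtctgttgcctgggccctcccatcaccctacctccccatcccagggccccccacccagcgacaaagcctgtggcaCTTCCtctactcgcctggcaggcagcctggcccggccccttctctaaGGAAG
Tgfbr2: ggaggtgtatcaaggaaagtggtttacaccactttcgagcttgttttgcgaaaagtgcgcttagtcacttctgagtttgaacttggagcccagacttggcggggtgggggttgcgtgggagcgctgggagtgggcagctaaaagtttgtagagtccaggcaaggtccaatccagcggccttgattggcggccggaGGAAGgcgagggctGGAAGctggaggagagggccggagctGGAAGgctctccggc
Tgfbr1: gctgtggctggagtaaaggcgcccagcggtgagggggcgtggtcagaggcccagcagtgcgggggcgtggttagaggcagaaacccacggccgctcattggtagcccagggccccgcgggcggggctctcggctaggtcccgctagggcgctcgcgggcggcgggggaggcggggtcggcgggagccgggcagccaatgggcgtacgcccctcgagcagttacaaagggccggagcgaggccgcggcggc
Acvr2a: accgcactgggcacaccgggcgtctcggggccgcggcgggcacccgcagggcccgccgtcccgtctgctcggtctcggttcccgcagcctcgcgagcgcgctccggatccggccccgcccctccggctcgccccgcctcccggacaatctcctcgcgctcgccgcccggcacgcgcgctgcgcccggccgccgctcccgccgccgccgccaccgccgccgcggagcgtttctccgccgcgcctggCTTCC
The window held 2 matches in Eng, 3 in Tgfbr2, 0 in Tgfbr1 and 1 in Acvr2a, and 64.1% of 32851 promoter windows of this length held at least 1. The other windows were all of receptors whose profiles lay nearer the photoreceptor than the endothelial list. Of these Bmpr2 held 4, the second Tgfbr1 start 3, Bmpr1a 2, and Acvr1 and Acvr2b 0, so matches did not follow the profile. GGCGCC, a GC-rich element bound by BMP-activated SMADs, which reads the same on both strands, occurred once each at the printed Tgfbr1 start, in Bmpr2 and in Bmpr1a, not in the other receptor windows, and in 9.6% of all windows. GC content was 62.4% in Eng, 58.4% in Tgfbr2, 74.8% in Tgfbr1 and 82.0% in Acvr2a. A match is a run of letters, not evidence of binding.

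Set against the endothelial list within each library, Acvrl1 had its 3 highest values in the 3 Smad4-iECKO libraries. Its log2 CPM minus the mean log2 CPM of the 22 endothelial markers was -0.74, -0.59 and -0.73 in Smad4f/f, against -0.30, -0.13 and -0.24 in Smad4-iECKO. The means were -0.69 ± 0.08 and -0.23 ± 0.09 (SD, n = 3 each), a difference of 0.46. A two-sided exact permutation test gave p = 0.1, and groups of 3 and 3 cannot give less. It was the 1 receptor of 10 without overlap, and 3.1% of all tested genes had no overlap on this measure, 2.33% on the higher and 0.766% on the lower side. Within the prefix 38 libraries the difference was 0.46, and in the prefix 40 pair it was also 0.46. Leaving out each library in turn gave 0.41 to 0.51.

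The choice of reference mattered. Against the pericyte list the Acvrl1 difference was 0.086 (exact permutation p = 0.7) and against the fibroblast list it was -0.40 (exact permutation p = 0.2), both with overlap, in a comparison added after the data were seen. All other marker lists also lay higher than the endothelial list in Smad4-iECKO. The fibroblast list did so by 0.86 without overlap (exact permutation p = 0.1). The microglia list was higher by 0.58 (exact permutation p = 0.4) and the pericyte list by 0.38 (exact permutation p = 0.2). The Mueller glia and astrocyte list was higher by 0.27 (exact permutation p = 0.9). Differences were 0.050 for the neuron and progenitor list and 0.011 for the rod and cone list. All but the fibroblast list overlapped between groups. The part of these lists in the Acvrl1 difference was not tested. By edgeR the endothelial list had 16 of 22 log2 fold changes below 0 (median -0.29). Its mean log2 CPM, the reference used here, is a different summary, averaged over log2 values and not fitted to counts. Around its mean over the 6 libraries it was 1.12, -1.28 and 0.22 in Smad4f/f, against -0.52, 0.31 and 0.15 in Smad4-iECKO, with overlap. Against the mean of the other markers, Tek and Sox17 were lower without overlap between groups, and Robo4, Vwf and Mmrn2 were higher without overlap. Relative to Pecam1 and Cdh5 alone, the Acvrl1 groups overlapped (difference 0.28, exact permutation p = 0.3). With each marker alone as the reference, a comparison added after the data were seen, the Acvrl1 difference was above 0 for 19 of 22. It was without overlap and higher for 8, which included Flt1, Tek and Nos3, and without overlap and lower for 1, Mmrn2. The share of all genes without overlap was not computed for single markers, and was 3.1% relative to the whole list. Among the 22 markers themselves, 5 had no overlap against the mean of the others, 3 higher and 2 lower. With the endothelial list as a covariate, the edgeR log2 fold change of Acvrl1 was 0.46 (standard error 0.24, adjusted p = 0.997).

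Eng and Tgfbr2 also lay higher on this measure, with overlap. Eng was at 0.25, 0.62 and 0.92 in Smad4f/f and at 1.30, 0.80 and 1.55 in Smad4-iECKO, a difference of 0.62 (exact permutation p = 0.2). Relative to Pecam1 and Cdh5 alone its groups did not overlap (difference 0.44, exact permutation p = 0.1), as 1 receptor of 10, and 2.51% of tested genes had no overlap on that measure, 1.33% on the higher side. Against the fibroblast list the Eng difference was -0.24 with overlap (exact permutation p = 0.6). Tgfbr2 was at 0.0015, -0.17 and 0.25 in Smad4f/f, against 0.19, 0.63 and 0.56 in Smad4-iECKO, a difference of 0.44 (exact permutation p = 0.2), and -0.43 against the fibroblast list. Tgfbr3 differed by -0.17 (exact permutation p = 0.7). For Bmpr2, Bmpr1a, Acvr1, Acvr2a, Acvr2b and Tgfbr1 the SD of this measure was 0.587 to 1.83 within a group, and exact permutation p ran from 0.7 to 1.

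**Figure D4:**
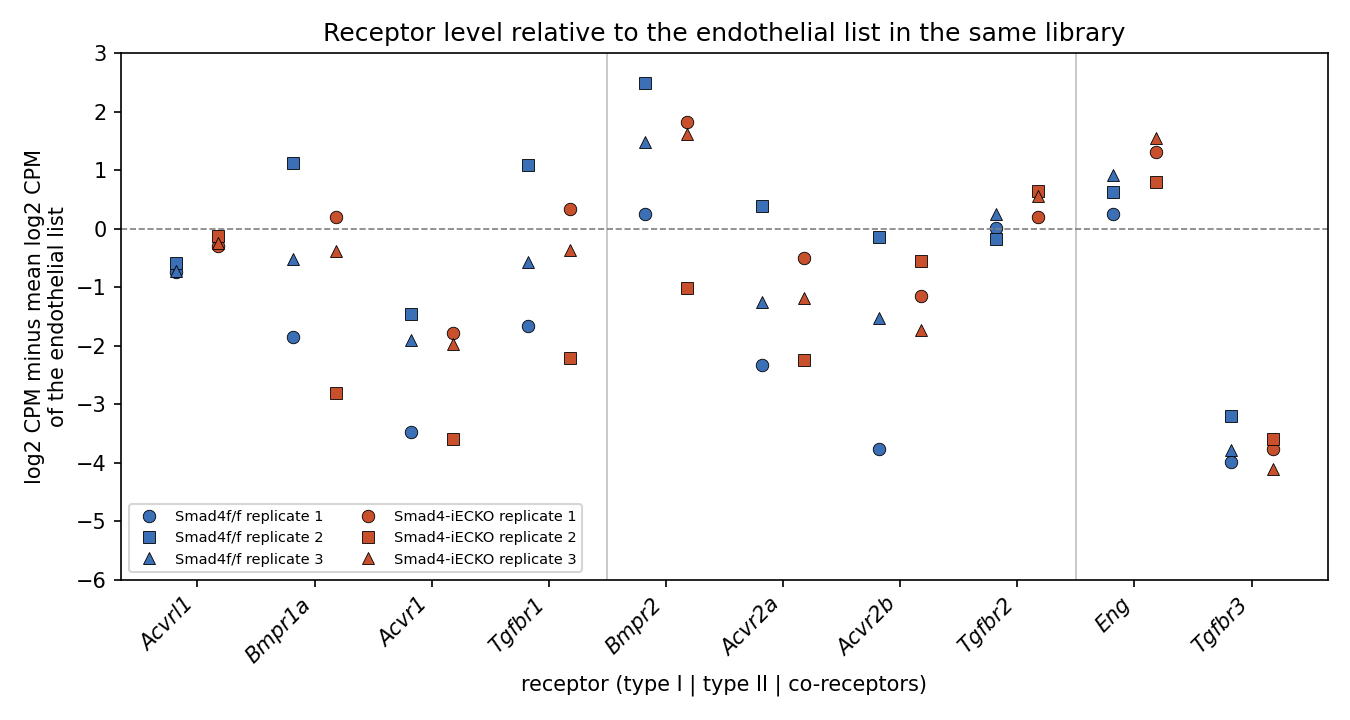
log2 CPM of each receptor minus the mean log2 CPM of the 22 endothelial markers in the same library, with Smad4f/f in blue and Smad4-iECKO in red. Acvrl1 lies between -0.74 and -0.59 in Smad4f/f and between -0.30 and -0.13 in Smad4-iECKO, and the other 9 receptors overlap.

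Ratios of read counts between receptors of like role do not depend on scaling. The Acvrl1 to Tgfbr1 ratio, which sets the BMP9 against the TGF-beta type I receptor, was 1.90, 0.314 and 0.898 in Smad4f/f, against 0.646, 4.24 and 1.09 in Smad4-iECKO. The Bmpr2 to Tgfbr2 ratio was 1.19, 6.35 and 2.33 in Smad4f/f, against 3.11, 0.319 and 2.08 in Smad4-iECKO. Smad4f/f replicate 2 and Smad4-iECKO replicate 2 held the extremes of both, in opposite directions. Without Smad4-iECKO replicate 2 the log2 difference between groups went from 0.83 to 0.05 for the first ratio and from -1.03 to -0.034 for the second. The Eng to Tgfbr3 ratio was 19.0, 14.2 and 26.0 in Smad4f/f, against 33.9, 21.0 and 50.9 in Smad4-iECKO, and the Acvrl1 to Eng ratio 0.505, 0.431 and 0.320 against 0.328, 0.525 and 0.289. The groups overlapped in all 4 ratios, with exact permutation p of 0.5, 0.5, 0.2 and 0.8 on the log2 scale.

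The rest of the pathway, 94 genes in 6 lists, held no called gene either. Of 73 that passed the low-count filter, edgeR called 0, as it called 0% of all tested genes. In these 73, 37 log2 fold changes were above 0 and 36 below. An unadjusted p under 0.05 was found for 1 (edgeR), against 1.31% of all tested genes. The 8 SMAD genes split into 4 above and 4 below 0 (median -0.069). Smad6, which encodes an inhibitory SMAD that acts on type I receptors, was at 17.2, 8.64 and 14.8 CPM in Smad4f/f, against 10.6, 59.96 and 21.3 CPM in Smad4-iECKO (log2 fold change 1.14, standard error 0.61). Smad4-iECKO replicate 2 held the high value, and without it the log2 fold change was 0.21. Smad7, its relative for TGF-beta signalling, had a log2 fold change of 0.40, and -0.11 without that library. Among 14 tested ligands, 10 were above 0 and 4 below (median 0.39). They included Inhbb, an activin subunit (0.92), Tgfb3 (0.63) and Tgfb1 (0.87), which were 0.34, 0.39 and 0.35 without Smad4-iECKO replicate 2. Tgfb3 ran from 9.46 to 14.7 CPM in Smad4f/f and from 15.3 to 25.1 CPM in Smad4-iECKO, without overlap. Its unadjusted p was 0.13 (edgeR), and 2.49% of all tested genes were higher in Smad4-iECKO without overlap.

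Of 16 tested extracellular regulators, 9 were above 0. Ltbp3, which binds latent TGF-beta, was at 42.2, 47.04 and 60.0 CPM in Smad4f/f and at 60.1, 117 and 82.4 CPM in Smad4-iECKO. These groups met without overlapping, as did those of the 2.49% of all tested genes that were higher in Smad4-iECKO without overlap. Its log2 fold change of 0.79 had an unadjusted p of 0.0402 and an adjusted p of 1.00 (edgeR), and was 0.49 without Smad4-iECKO replicate 2. The BMP-binding Crim1 had 0.61, and the BMP antagonist Chrdl1 -1.01, at 0 counts in Smad4-iECKO replicate 2 and at -0.60 without it. Of 15 intracellular regulators, 5 were above 0 (median -0.11). Dab2, an endocytic adaptor, was at 90.4, 20.1 and 68.5 CPM in Smad4f/f, against 22.8, 14.4 and 47.7 CPM in Smad4-iECKO (log2 fold change -1.05), with Ski at 0.46 (-0.076 without Smad4-iECKO replicate 2) and Tgif1 at -0.55. Of 13 targets, 6 were above 0, with Lfng at 0.67 (0.38 without Smad4-iECKO replicate 2) and the endothelial ALK1 target Tmem100 at -1.71, the last at 0 to 6.31 CPM.

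Of 11 other receptors and co-receptors of the family, 7 passed the filter, 3 above 0 and 4 below. Bambi, a pseudoreceptor without kinase activity, was at 104.5, 19.4 and 42.3 CPM in Smad4f/f, against 22.8, 56.7 and 33.4 CPM in Smad4-iECKO (log2 fold change -0.57, and -1.001 without Smad4-iECKO replicate 2). Bmpr1b was at 2.79 to 12.4 CPM in all libraries, with a log2 fold change of 0.78 (standard error 0.59). Without Smad4-iECKO replicate 2 it was 1.11 (standard error 0.42). The BMP co-receptor Rgma was at 8.005 to 13.9 CPM, with a log2 fold change of 0.47, and 0.36 without that library.

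In the authors' deposited table of this comparison 0 of the 10 receptors had an adjusted p under 0.05, against 13.4% of the genes with an adjusted p. The smallest there was 0.122, for Acvr2b, with an unadjusted p of 0.0275 and a log2 fold change of 0.55. The authors' deposited table gave 0.18 for Acvrl1, 0.34 for Eng and -0.26 for Bmpr2. The count table holds each sample in 3 columns with the same values in all 24421 genes. When all 18 columns were entered as if they were separate libraries, which is no valid test, DESeq2 called 12% of genes and edgeR 5.74%, and each called 0 of 10 receptors. DESeq2 on the 18 columns gave an unadjusted p of 0.0264 for Acvr2b and 0.176 for Eng. The deposited unadjusted values, 0.0275 and 0.181, lay close to these. DESeq2 on the 6 libraries gave 0.211 and 0.438. Whether the deposited values came from all columns was not tested, so they are not read here as a separate test.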

How the data were processed

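RNA from 6 samples was turned into libraries by the TruSeq RNA kit, version v2, as the labels' protocols state. STAR, DESeq2 and mm10 were used, per the submitters' processing notes, with no versions; which tool and annotation gave the counts is not given in the sources used here. The authors deposited read counts per gene in 18 columns, 3 identical ones per sample, of which 1 was used. Their deposited comparison table holds a mean normalized signal, log2 fold changes, a standard error, a test score and p-values before and after adjustment, per the file headers.

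Groups follow the genotype label and replicates were numbered in accession order. The main test was edgeR 4.0.16 (R 4.3.3), quasi-likelihood, with TMM scaling, filterByExpr (minimum count 10, total 15), no covariate and Benjamini-Hochberg adjustment over 14362 genes. SE is the log2 fold change divided by the square root of F. DESeq2 1.42.0 and limma 3.58.1 (voom) were alternatives. Log2 CPM used a prior count of 0.5. Exon lengths are from GENCODE M21 (mm10). The kit does not mark strand, so reads from exons shared by overlapping genes cannot be told apart. Overlaps were taken from gene spans, introns included, and shared exons were not checked. Overlapping by span are Fpgs and small RNA genes at Eng, Orc4 at Acvr2a, Gm17409 at Acvr1, and antisense RNAs at Acvrl1, Bmpr1a and Acvr2b. Gm38125 overlaps Bmpr2, and Gm42900, Gm43422, Gm43423 and Gm8145 overlap Tgfbr3. Tests were tried on simulated counts. A count of 3 equals 1.39 CPM in Smad4-iECKO replicate 2 and 0.123 to 0.239 CPM elsewhere, for counting error only. Named genes are all receptors, Smad4, the 3 smallest p-values per pathway list and the 3 genes nearest to Acvrl1 and to Eng; 1 gene of the target list is not reported here. Members and lists were chosen with earlier results of these data known. Figures: matplotlib 3.10.9.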

Additional observations from a re-analysis of the deposited data

How the results depend on the processing

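No receptor was called in any alternative fit that was run. The count over all genes was 0 except with DESeq2 (11), voom with sample quality weights (8) and all 18 columns as libraries (1725 by DESeq2, 825 by edgeR). Signs of the uncalled log2 fold changes turned in some fits. In the prefix 38 libraries Acvrl1 was -0.43, Bmpr2 0.0012, Bmpr1a 0.22, Acvr2a 0.077, Tgfbr1 0.23 and Tgfbr2 -0.57. Acvr1 was 0.022 with voom, and with quality weights Acvr2b was -0.16 and Tgfbr1 0.071; the cause was not tested. Leaving out each library gave -0.20 to 0.84 for Acvrl1, -0.011 to 0.74 for Eng, -0.81 to 0.093 for Bmpr2, -0.65 to 0.079 for Bmpr1a, -0.50 to 0.19 for Acvr1, -0.46 to 0.12 for Tgfbr1, -0.30 to 0.72 for Tgfbr2 and -0.64 to 0.13 for Tgfbr3. Relative to the endothelial list these fits gave -1.17 to 0.32 for Bmpr2, -1.30 to 0.33 for Bmpr1a, -0.77 to 0.40 for Acvr1, -0.87 to 0.48 for Acvr2a, -0.32 to 1.49 for Acvr2b, -1.005 to 0.37 for Tgfbr1 and -0.33 to 0.063 for Tgfbr3, and -0.42 to 0.013 for the log2 Acvrl1 to Eng ratio. With the fibroblast list as the reference, added after the data were seen, Acvrl1 was -0.40, Eng -0.24 and Tgfbr2 -0.43. Scaling to the endothelial list moved the median of all genes to -0.24 from -0.017. Acvrl1 and Eng moved the other way, to 0.46 from 0.21 and to 0.63 from 0.40. Their standard errors were 0.89 and 0.91 under this scaling. With the title prefix as a replicate block, 0 genes were called and Eng was 0.61; genes at an unadjusted p under 0.05 went from 188 to 303 and the smallest adjusted p from 0.864 to 0.0548. Deviations from the group means correlated over genes at 0.0058 for the prefix 40 pair and at -0.13 to 0.16 for the 4 pairings within prefix 38. The labels do not say what the prefix marks, and whether it marks a shared source was not settled. Per kilobase, Acvr1 was 9.96 with the longest transcript. The depth of Smad4-iECKO replicate 2 limits its scarce receptors: 35 reads each for Acvr1 and Tgfbr3 gave 11.3 to 22.6 CPM (exact Poisson).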

Other observations

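Transcripts of BMP9 and BMP10, ligands of ALK1 and endoglin, were all but undetected in the retinal isolates. Gdf2, which encodes BMP9, had 5 reads in 1 library, and Bmp10 had 8 reads in 2 libraries, at most 0.206 and 0.394 CPM. Both ligands are known to reach endothelium through the blood, from liver and heart. Other members of the family were also near the floor: Acvr1c (ALK7) had 29 reads in 4 libraries, the Nodal co-receptor gene Tdgf1 had 1 read, Nodal had 6 and Mstn had 40. Amhr2, the receptor for anti-Muellerian hormone, had 10 of its 17 reads in Smad4-iECKO replicate 2, the shallowest library (4.65 CPM there). Inhba, an activin subunit gene, had counts in 6 of 6 libraries and its highest level, 3.25 CPM, in that same library.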
